A study of Mus musculus with 1009 samples.

Results

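Acute dietary restriction (aDR) was compared with ad libitum feeding (AL) in 3 tissues of the old mouse brain: the caudate putamen, which is the dorsal striatum, the subventricular zone (SVZ) next to it, and the choroid plexus. All libraries of the diet restriction cohort labelled with one of these regions were included, which gave 23 of the 113 libraries of that cohort and of the 1009 libraries of the whole series. They came from 8 female C57BL/6JN mice killed at 19 months of age, 4 on aDR (mice 61, 62, 65 and 67) and 4 on AL (mice 63, 66, 68 and 69). Each mouse gave 1 library per region, except that there was no choroid plexus library of mouse 62, so that the groups held 4 aDR and 4 AL libraries in the caudate putamen and the SVZ, and 3 aDR and 4 AL libraries in the choroid plexus.

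The aDR mice were moved from free feeding to a mild and then to a stronger restriction from 18 months of age and received their food once a day in the afternoon, whereas the AL mice always had food. All animals were killed in the morning, before the daily meal of the aDR mice. The amount eaten and the time since the last meal therefore cannot be told apart. The labels name no transgene. For its separate aging cohort, the study describes perfusion and frozen punches of the right hemisphere, with overlapping punches of the caudate putamen and then the SVZ, while the collection from the diet mice is not stated separately in the sources used here. In such bulk tissue, fewer cells of a type and less RNA per cell cannot be told apart.

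MicroRNAs (miRNAs) are short RNAs that guide Argonaute proteins to messenger RNAs, mostly by pairing of their seed, bases 2 to 8, and lower the output of the messages they bind. The striatum is rich in medium spiny neurons and is a main target of dopamine neurons. The SVZ lines the lateral ventricle with ciliated ependymal cells and neural stem cells, and the choroid plexus is the secretory epithelium that makes cerebrospinal fluid. Dietary restriction is known to lower insulin and mTOR signalling and to extend lifespan in mice, and let-7 miRNAs are known regulators of the insulin and mTOR pathway.

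The miRNAs on which the results turn are given here as mature sequences from RefSeq with coordinates on GRCm38.p6, with the seed in capitals. The first group is miR-148b-3p, the miRNA that passed the test in the SVZ, with the 2 miRNAs that share its seed.
miR-148b-3p: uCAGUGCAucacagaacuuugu
miR-148a-3p: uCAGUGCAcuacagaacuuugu
miR-152-3p: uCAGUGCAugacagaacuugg
The gene of miR-148b-3p lies at chr15:103285185-103285206 (+) in an intron of Copz1, and that of miR-152-3p at chr11:96850439-96850459 (+) in an intron of the paralogous gene Copz2. The gene of miR-148a-3p is at chr6:51269829-51269850 (-).

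The second group holds the miRNAs that passed the test in the caudate putamen once a single atypical library was left out, in the order of their p values.
miR-132-3p: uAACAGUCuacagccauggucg
miR-339-5p: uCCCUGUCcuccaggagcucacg
miR-128-1-5p: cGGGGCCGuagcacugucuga
miR-218-5p: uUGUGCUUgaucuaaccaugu
miR-668-3p: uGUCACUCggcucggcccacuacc
miR-7662-3p: uGGAGCCAggcggaucagccuugc
miR-12194-3p: uCUGUGGGucuguuuguccguc
miR-5121: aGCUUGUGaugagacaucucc
No pair of these 8 shared a seed. miR-132-3p lies at chr11:75173723-75173744 (+) next to miR-212, and miR-339-5p at chr5:139369708-139369730 (-) in an intron of 3110082I17Rik. miR-128-1-5p, the less used arm of a neuronal precursor, lies at chr1:128202369-128202389 (+) in an intron of R3hdm1. miR-218-5p comes from 2 genes, at chr5:48223966-48223986 (+) in an intron of Slit2 and at chr11:35616840-35616860 (+) in an intron of Slit3. miR-668-3p is part of the imprinted Mirg cluster at chr12:109734774-109734797 (+). miR-7662-3p overlaps an exon of Tspan15 at chr10:62194167-62194190 (-), miR-5121 overlaps Rpl13a and its small nucleolar RNA Snord33 at chr7:45126925-45126945 (-), and miR-12194-3p lies at chr3:55887284-55887305 (-) in an intron of Nbea.

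Levels are given as reads per 1e+06 of the library's own miRNA reads (RPMM), whereas fold changes and tests were scaled by the trimmed mean of M values (TMM) and given as log2 differences, aDR minus AL. Values are listed in the order of mice 61, 62, 65 and 67 for aDR and of mice 63, 66, 68 and 69 for AL. A miRNA was called at an adjusted p below 0.05 and a fold of at least 1.5. Across 22 of the 23 libraries, the depth lay between 7.13 and 22.0 mega-reads of miRNA (median 11.9; 1 mega-read is 1e+06 reads), and between 947 and 1252 miRNAs were detected. The 5 most abundant miRNAs of the caudate putamen were let-7c-5p, let-7a-5p, miR-124-3p, let-7b-5p and miR-181a-5p. The same 5 led the SVZ, whereas miR-204-5p and miR-9-5p took the place of let-7b-5p and miR-181a-5p in the choroid plexus.

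The caudate putamen library of aDR mouse 62 stood apart from all others. It held 5.15 mega-reads of miRNA, detected 459 miRNAs against 1150 to 1230 in the other aDR libraries of this region, and 90.2% of its reads were let-7 against 37.3% to 59.7% in the other 22 libraries. Counts of called miRNAs in the caudate putamen and over the 3 regions are therefore given with and without it. The single miRNAs and lists of the caudate putamen are mostly given without it, and the isomiR tests with it. In the SVZ, the share of let-7 reads was 43.4%, 43.8%, 51.1% and 51.3% in the aDR libraries and 59.7%, 54.2%, 56.6% and 56.4% in the AL libraries. The groups did not overlap in this share, and the part of this composition in the SVZ results was not tested. Library complexity is the number of miRNAs expected when a library is thinned to 1 mega-read. In the SVZ it was 804, 830, 700 and 790 under aDR and 609, 742, 713 and 749 under AL. Mouse 65 was within the AL range, and the other aDR libraries were above it.

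**Figure D1:**
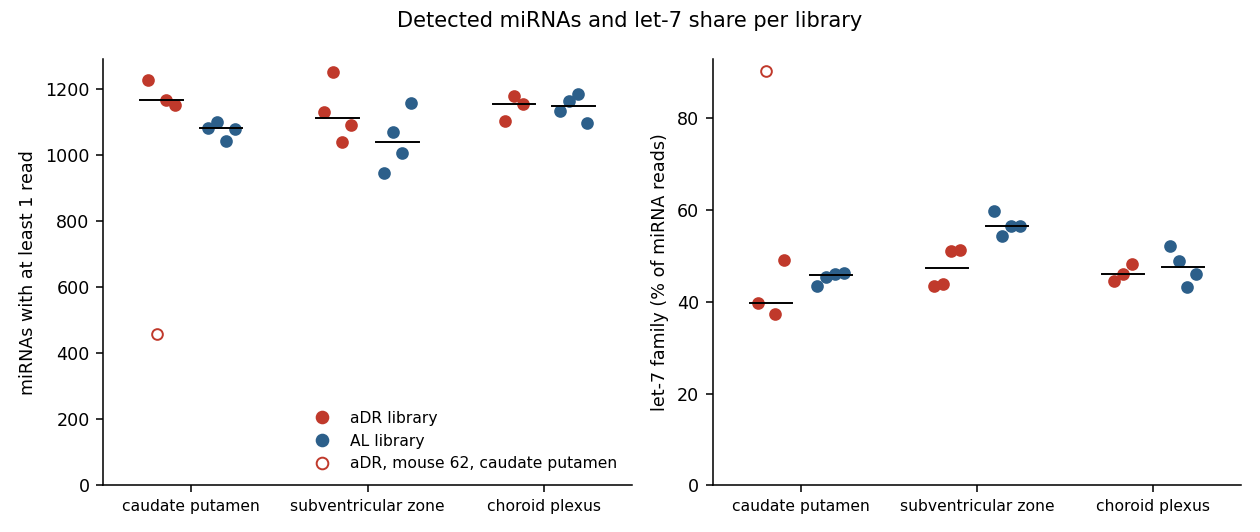
Detected miRNAs (left, number per library) and the share of miRNA reads in the let-7 family (right, percent) for each library of the 3 regions, with aDR and AL libraries in separate colours. The caudate putamen library of aDR mouse 62 lies apart from the other 22 with 459 detected miRNAs and 90.2% let-7 reads, and the SVZ groups do not overlap in the let-7 share.

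The labels were checked against miRNAs known to mark the cells of each tissue. miR-204-5p, transcribed from an intron of Trpm3 (chr19:22750610-22750631, +) and abundant in choroid plexus epithelium, lay between 29675 and 131886 RPMM in the choroid plexus libraries, between 6946 and 84707 RPMM in the SVZ, and between 6607 and 15311 RPMM in the caudate putamen. The ranges of the SVZ and the choroid plexus overlapped over most of their width. The miRNAs of multiciliated cells (miR-34b, miR-34c and miR-449) summed to between 1285 and 7602 RPMM in the SVZ, between 712 and 4247 RPMM in the choroid plexus, and between 455 and 937 RPMM in the caudate putamen without mouse 62. Neuronal miR-124-3p was as high in the choroid plexus as in the caudate putamen, between 61310 and 117706 RPMM. Neuronal miRNAs were thus not absent from the libraries labelled choroid plexus, and SVZ libraries held choroid plexus miRNAs to a varying extent.

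**Figure D2:**
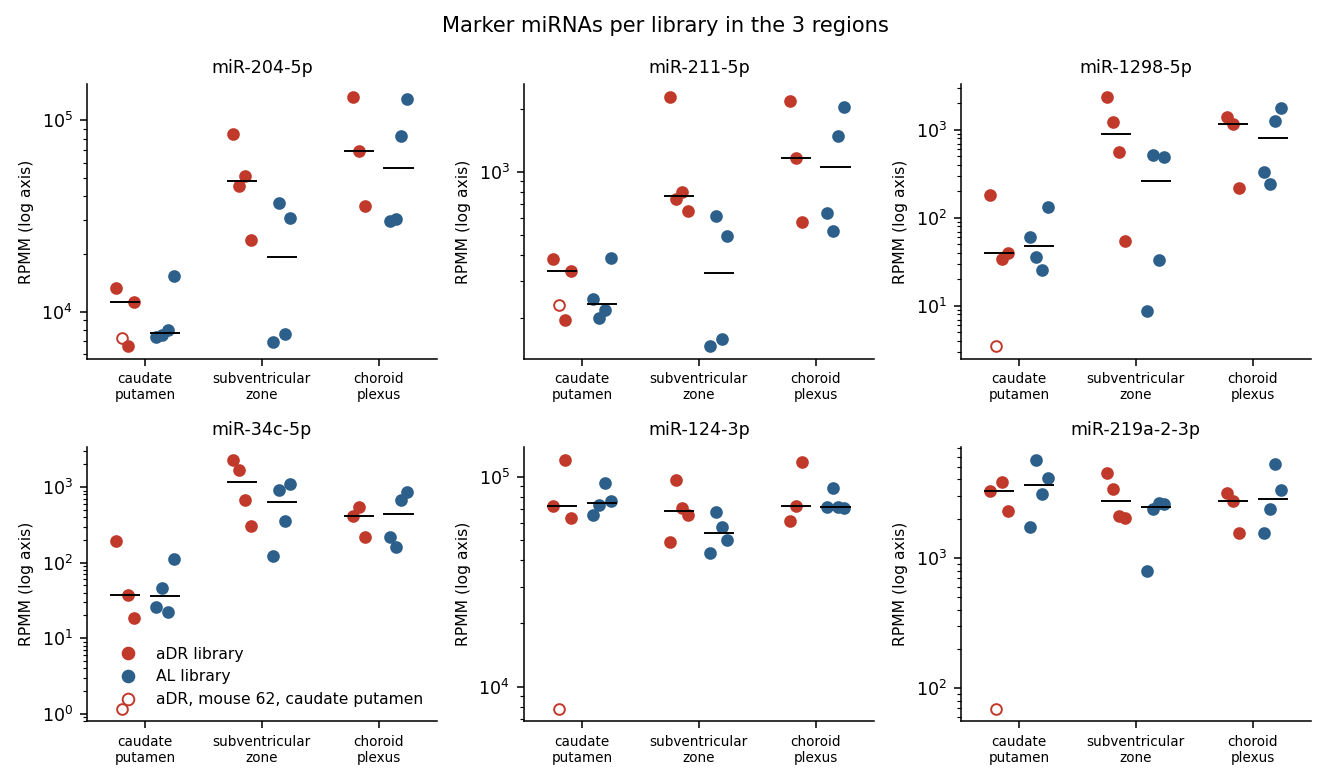
Levels in RPMM (log axis) of 6 marker miRNAs in every library of the 3 regions; points are libraries, coloured by diet, and the open circle is the caudate putamen library of mouse 62. miR-204-5p, miR-211-5p and miR-1298-5p mark choroid plexus epithelium and overlap between the SVZ and the choroid plexus, miR-34c-5p marks ciliated cells, miR-124-3p marks neurons and is present in all 3 regions, and miR-219a-2-3p marks oligodendrocytes.

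In the SVZ, miR-148b-3p rose under aDR and was the 1 miRNA called of 1287 tested (0.0777%), and no miRNA was called lower. miR-148b-3p belongs to the miR-148/152 family, which is known to target DNA methyltransferases. Its level was 164.5, 73.0, 13.1 and 63.9 RPMM in the aDR libraries and 5.76, 15.4, 6.25 and 16.5 RPMM in the AL libraries. Of the 4 aDR libraries, 3 were above every AL library, while the one of mouse 65 fell within the AL range. The means were 78.6 ± 63.0 RPMM under aDR and 11.0 ± 5.77 RPMM under AL (SD, n = 4 each), a log2 difference of 2.15 (SE 0.456, edgeR quasi-likelihood test, adjusted p = 0.0394). The call was lost without the library of mouse 61, 67 or 68 (adjusted p = 0.173, 0.0913 and 0.268) and with other tools (DESeq2 0.0553, limma voom 0.356). Leaving out mouse 65 gave 48 calls in the SVZ, 12 higher and 36 lower, and leaving out AL mouse 63 gave 11, with miR-148b-3p among them each time.

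miR-148b-3p was not called in the other regions. In the caudate putamen it was 140, 0.970, 64.3 and 103 RPMM under aDR and 64.5, 56.0, 12.9 and 24.3 RPMM under AL, and without mouse 62 the log2 difference was 1.2 (SE 0.373, adjusted p = 0.185 by edgeR). In the choroid plexus it was 75.5, 81.5 and 19.8 RPMM in mice 61, 65 and 67 and 45.6, 74.5, 28.0 and 15.3 RPMM under AL, a log2 difference of 0.50 (SE 0.469, adjusted p = 0.993). The groups overlapped in both regions. In limma voom without the caudate putamen library of mouse 62, the effect in the SVZ minus that in the caudate putamen was 0.57 on the log2 scale (SE 0.78, adjusted p = 0.884). In the same fit, the effect in the choroid plexus minus that in the SVZ was -1.53 (SE 0.77, adjusted p = 0.8). A lesser difference in the other regions is therefore not shown, and the unadjusted p of its interaction of diet and region was 0.201, or 0.154 without mouse 62 in the caudate putamen (limma voom).

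The other members of the family, which carry the same seed, were lower than miR-148b-3p in the SVZ. miR-152-3p was at 35.1, 19.5, 4.86 and 16.2 RPMM under aDR and 1.36, 8.66, 6.05 and 8.39 RPMM under AL, again with mouse 65 as the aDR library within the AL range. Its log2 difference of 1.06 (SE 0.468) was not called (adjusted p = 0.400 by edgeR), and neither was that of miR-148a-3p, 0.48 (SE 0.476, adjusted p = 0.715). With age, miR-148b-3p had no called slope in the SVZ of the separate aging cohort (0.004 per month on the log2 scale, adjusted p = 0.83 by edgeR), where its level was 28.1 ± 10.7 RPMM at 3 months (SD, n = 10) and 30.0 ± 9.57 RPMM at 21 months (SD, n = 11). The slope in the caudate putamen was not called either (-0.03, adjusted p = 0.372 by edgeR). In that cohort's choroid plexus miR-148b-3p rose with age by 0.05 per month (adjusted p = 0.0175 by edgeR), from 6.79 ± 5.07 RPMM at 3 months (SD, n = 10) to 21.6 ± 13.5 RPMM at 21 months (SD, n = 11), a call that was lost with females alone (0.03, adjusted p = 0.499 by edgeR).

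The isomiR counts give reads by end form of a miRNA. Over the 3 regions, the leading form of miR-148b-3p was the annotated sequence with 1 more U at its 3′ end, ucagugcaucacagaacuuuguU, with 43.0% of its reads. The added base is shown in capitals, and it does not match the genome, which has C there. The annotated sequence itself took 28.3%, and the form 1 base shorter took 10.7%. In the SVZ, the annotated sequence made up 30.3% ± 5.51 of miR-148b-3p reads under aDR (22.6% to 34.7%) and 14.4% ± 5.15 under AL (7.81% to 19.6%; mean ± SD, n = 4 each). The groups did not overlap (exact permutation test, two-sided, p = 0.0286, the smallest that 4 against 4 libraries can give), but the value adjusted over the 64 region and miRNA pairs was 0.261, and the lowest number of reads behind a share was 64. In choroid plexus libraries the share was 27.2% ± 10.4 under aDR (15.6% to 35.6%, n = 3) and 22.4% ± 4.64 under AL (16.8% to 26.8%, n = 4), with overlap (exact permutation test, two-sided, p = 0.457). In the caudate putamen the share was not tested, since the library of mouse 62 held 5 reads of miR-148b-3p. The other aDR libraries there had shares of 32.0%, 22.8% and 31.7% (mice 61, 65 and 67). Under AL the shares were 20.1%, 17.4%, 7.53% and 7.96%, without overlap. None of the 64 pairs passed in this exact test, and 7 were below an unadjusted p of 0.05. For the 47 pairs with at least 200 reads in every library, none passed either. No pair can go below p = 0.0286 in this exact permutation test, so that pairs pass the adjustment only where many reach that floor together. The absence of passing pairs therefore does not show that the shares were equal. All caudate putamen pairs included the library of mouse 62, and no isomiR test was made without it.

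The SVZ miRNAs with the next smallest p values were not called. Together with the called miR-148b-3p, they made up the 5 of at least 10 RPMM with the smallest p, and their groups are given for that reason only. miR-132-3p, which neurons transcribe in response to activity, varied widely among the aDR libraries. It was 6.37, 2504, 3464 and 190 RPMM under aDR and 250, 55.8, 45.4 and 36.3 RPMM under AL (log2 difference 3.22, SE 0.877, adjusted p = 0.231 by edgeR). It was called higher when mouse 61, 62, 63, 66 or 69 was left out (edgeR adjusted p between 1.65e-20 and 0.0326), and the difference ranged from 1.88 without mouse 65 to 5.07 without mouse 63. Its partner strand miR-132-5p, cut from the same precursor, was 36.8, 67.8, 28.4 and 89.6 RPMM under aDR and 28.3, 42.8, 44.8 and 22.7 RPMM under AL, so that the wide spread was seen in one arm of the precursor.

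miR-764-5p, made from an intron of the serotonin receptor gene Htr2c (chrX:147002285-147002303, +), which choroid plexus epithelium expresses strongly, was 51.6, 42.1, 9.39 and 12.8 RPMM under aDR and 0.544, 7.06, 1.09 and 11.5 RPMM under AL (2.00, SE 0.557, adjusted p = 0.231 by edgeR). Mice 61 and 62 were far above the AL libraries, and mouse 65 was within the AL range. miR-433-5p, from the imprinted cluster antisense to Rtl1 (chr12:109591729-109591750, +), was 13.6, 28.7, 45.1 and 9.21 RPMM under aDR and 41.8, 44.5, 60.8 and 70.6 RPMM under AL (-1.56, SE 0.467, adjusted p = 0.298). miR-1895 was 5.38, 10.0, 26.8 and 13.5 RPMM under aDR and 23.2, 28.5, 64.6 and 17.0 RPMM under AL (-1.62, SE 0.503, adjusted p = 0.298). For both, mouse 65 reached into the AL range. The isomiR counts of these libraries held 1 read of miR-1895 in total, so that they do not back its levels. Why the counts differ was not tested.

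**Figure D3:**
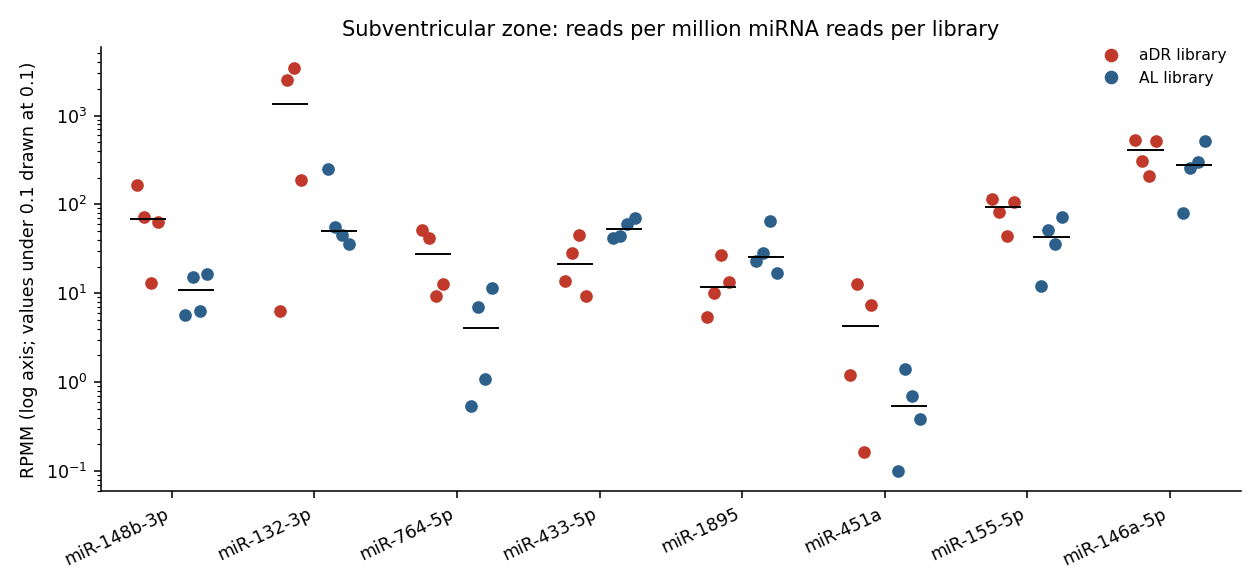
Levels in RPMM (log axis) of 8 miRNAs in each SVZ library by diet; points are libraries and horizontal lines group medians. For miR-148b-3p, 3 of the 4 aDR libraries lie above every AL library, and miR-132-3p runs from 6.37 to 3464 RPMM under aDR and from 36.3 to 250 RPMM under AL.

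At an unadjusted p below 0.05, 155 of the 1287 SVZ miRNAs (12%) were reached, 88 with higher and 67 with lower values under aDR. These unadjusted counts moved with the scaling, since scaling to the total miRNA count instead of TMM shifted the median log2 difference of all SVZ miRNAs from 0.12 to 0.70. Of 393 miRNAs with a mean of at least 10 RPMM, 12 (3.05%) were higher in every aDR library than in every AL library, and 5 (1.27%) were lower in every one. Among the former were the choroid plexus miRNA miR-211-5p, the oligodendrocyte miRNA miR-338-3p, miR-139-5p and let-7i-3p (mean 449 RPMM). Among the latter were let-7d-5p, let-7i-5p and the neuronal miR-129-5p. The arms let-7i-3p and let-7i-5p of the same precursor thus went in opposite directions.

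The 14 choroid plexus miRNAs include the clusters within Trpm3, Trpm1 and Htr2c. They are both arms of each precursor, so that they are not independent of each other. All 14 had positive log2 differences in the SVZ, with a median of 1.15 against 0.12 for all miRNAs tested. Of all 1287 miRNAs tested there, 708 were positive. None was called, and 6 of the 14 were below an unadjusted p of 0.05 (12% of all miRNAs). miR-204-5p was at 84707, 45287, 50794 and 23757 RPMM under aDR and 6946, 37019, 7681 and 30804 RPMM under AL, with mouse 67 below AL mice 66 and 69. The related miR-211-5p, with the same seed (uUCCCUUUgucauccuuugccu against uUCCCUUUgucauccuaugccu for miR-204-5p), was 2279, 742, 799 and 651 RPMM under aDR and 147, 613, 159 and 496 RPMM under AL (1.15, SE 0.43, adjusted p = 0.360 by edgeR). The list sum ranged from 24775 to 90899 RPMM under aDR and from 7172 to 38662 RPMM under AL. In the choroid plexus itself, 9 of the 14 were positive, the median was 0.06 and none was below an unadjusted p of 0.05. The share of choroid plexus tissue in an SVZ punch was not measured, and its part in these differences was not tested. Leaving out single SVZ libraries left between 11 and 14 of the list positive, with medians between 0.71 (without mouse 61) and 1.49 (without mouse 69). Members were then called only without mouse 63 (1), 65 (2) or 69 (2).

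All 9 miRNAs of the let-7 list had negative log2 differences in the SVZ, with a median of -0.94, and 5 were below an unadjusted p of 0.05 with none called. let-7d-5p was 31616, 34950, 37190 and 38025 RPMM under aDR and 43145, 44059, 44423 and 46925 RPMM under AL, with no overlap. Scaled to the total miRNA count, 8 of the 9 were negative and the median was -0.33. All 9 were also negative in the caudate putamen without mouse 62 (median -0.24, 2 below an unadjusted p of 0.05), whereas with mouse 62 all 9 were positive with a median of 3.32. These values of the caudate putamen depended on the scaling. With the total miRNA count, 6 of the 9 were positive with mouse 62 (median 0.27), and 6 were negative without it (median -0.03). In the choroid plexus, 8 of the 9 were negative with a median of -0.12, or 6 of the 9 with a median of -0.04 under the total count. No let-7 miRNA was called in any of these fits. In the SVZ, all 9 stayed negative when any 1 library was left out, but the median was -0.60 without AL mouse 63, and it was -1.29 with 3 members called without aDR mouse 65.

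Blood and immune miRNAs also had mostly positive differences in the SVZ. All 6 measured erythroid miRNAs were positive (median 1.30, 3 below an unadjusted p of 0.05), among them miR-451a, miR-486a-5p and miR-486b-5p, the last 2 of which come from one locus and share their mature sequence. The sum of the 6 was 17.8, 29.3, 6.18 and 30.0 RPMM under aDR and 2.72, 6.53, 8.43 and 8.71 RPMM under AL. Of 6 leukocyte miRNAs 5 were positive (median 0.71), led by miR-223-3p of myeloid cells (1.42, SE 0.49, edgeR adjusted p = 0.360). Of 5 measured microglia and inflammation miRNAs 4 were positive (median 0.52), and miR-21a-5p had the largest value (1.02, SE 0.393, adjusted p = 0.360). None of these was called with all 8 libraries, but miR-451a was called when mouse 61, 63, 65 or 66 was left out, and miR-223-3p when mouse 65 was. The leukocyte sum was 1692, 1625, 540 and 1761 RPMM under aDR and 309, 963, 815 and 521 RPMM under AL, and the microglia and inflammation sum 1169, 766, 354 and 954 RPMM against 126, 463, 452 and 753 RPMM. In each of the 3 sums, aDR mouse 65 was within the AL range and the other aDR libraries were above it. AL mouse 63, the SVZ library with the fewest detected miRNAs (947), was the lowest in each. SVZ library complexity, given above, also had mouse 65 within the AL range and the other aDR libraries above it. The part of complexity in these sums was not tested. Leaving out single libraries gave list medians of 1.16 to 1.66 (erythroid), 0.51 to 0.89 (leukocyte) and 0.37 to 0.74 (microglia and inflammation). Without mouse 63 they were 1.25, 0.71 and 0.37.

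The remaining lists gave no called miRNA in the SVZ with all 8 libraries. Of 4 oligodendrocyte miRNAs, 3 were positive and below an unadjusted p of 0.05 (median 0.80), with miR-338-3p at 2288, 1583, 636 and 646 RPMM under aDR and 255, 618, 375 and 609 RPMM under AL. All 4 measured fibroblast miRNAs were positive (median 0.75, 2 below an unadjusted p of 0.05). The epithelial list had 7 of 10 positive (median 0.84), the endothelial and mural list 4 of 5 (median 0.11), the activity-regulated list 3 of 5 (median 0.38) and the multiciliated list 3 of 6 (median -0.05). Of the 12 neuronal miRNAs 5 were positive (median -0.11), with miR-128-3p higher and miR-9-5p and miR-129-5p lower at an unadjusted p below 0.05. miR-128-3p was 2108, 1785, 259 and 2164 RPMM under aDR and 133, 469, 468 and 595 RPMM under AL (1.31, SE 0.42, adjusted p = 0.343 by edgeR). Of the 12 miRNAs tied to nutrient and insulin signalling, such as miR-103-3p, miR-107-3p and miR-29a-3p, 6 were positive, none was below an unadjusted p of 0.05, and the median was -0.01. Both the scaling and single libraries moved these lists. Scaled to the total miRNA count, 11 of the 12 nutrient and insulin miRNAs were positive (median 0.56). The same scaling gave 9 of 12 neuronal (median 0.50) and 5 of 6 multiciliated miRNAs positive (median 0.52), with a median of 0.70 for all miRNAs. miR-132-3p of the activity-regulated list was called as given above, and without mouse 65 its neighbour miR-212-3p and the neuronal miR-128-3p, miR-129-5p and miR-9-5p were called. The list medians ranged from -0.16 to 0.09 for neuronal miRNAs (above 0 without mouse 61, 63 or 68), from -0.17 to 0.39 for multiciliated ones (above 0 without mouse 63, 66 or 67), and from -0.08 to 0.24 for endothelial and mural ones (below 0 without mouse 61 or 63). The epithelial median was -0.08 without mouse 67, with 4 of 9 positive, and 0.53 to 1.78 when any 1 other library was left out. Those of the oligodendrocyte, fibroblast and activity-regulated lists stayed positive (0.51 to 0.92, 0.50 to 1.24 and 0.23 to 0.60).

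No miRNA was called in the caudate putamen among 1281 tested with all 8 libraries (0%, edgeR), and 149 (11.6%) were below an unadjusted p of 0.05. DESeq2 called 14, and limma voom and limma trend called 0. Without the library of mouse 62, 8 miRNAs (0.625%) were called, 7 higher and 1 lower, and 141 (11%) were below an unadjusted p of 0.05. This count rests on a fit of 3 aDR against 4 AL libraries, and it was 0 with limma voom, 0 among miRNAs of at least 10 RPMM, 1 with library complexity as a term (the number of miRNAs expected when a library is thinned to 1 mega-read), 4 with DESeq2 and 12 with scaling to the total miRNA count.

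miR-339-5p and miR-218-5p were called higher without mouse 62 and also when any 1 of the 7 remaining libraries was left out. miR-339-5p was 27.6, 1.16, 56.8 and 19.9 RPMM under aDR and 6.00, 11.5, 5.33 and 5.09 RPMM under AL. Apart from mouse 62, every aDR library was above every AL library, and the log2 difference was 2.11 (SE 0.339, adjusted p = 0.00045 by edgeR). In the SVZ it was 12.1, 67.8, 12.1 and 16.0 RPMM under aDR and 3.18, 7.81, 5.55 and 12.2 RPMM under AL, where mice 61 and 65 were level with the highest AL library and mice 62 and 67 were above it (log2 difference 1.30, SE 0.472, adjusted p = 0.360 by edgeR). miR-218-5p, known for its high levels in motor neurons and its hosts Slit2 and Slit3, was 1491, 1441, 4801 and 2512 RPMM under aDR and 978, 547, 617 and 640 RPMM under AL. All 4 aDR libraries were above all AL libraries, and without mouse 62 the log2 difference was 1.83 (SE 0.318, adjusted p = 0.00097 by edgeR). Without mouse 65 as well, the log2 differences were 1.61 for miR-339-5p and 1.34 for miR-218-5p. With all 8 libraries they were 2.08 and 3.59, and neither was called. The differences of miR-218-5p in the SVZ and the choroid plexus were -0.15 (SE 0.545) and -0.21 (SE 0.466), neither of them called.

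Of the other 5 miRNAs called higher, 4 lost the call when the library of mouse 65 was left out as well. miR-132-3p was 30.4, 5446, 2556 and 54.5 RPMM under aDR and 19.4, 12.5, 20.6 and 19.6 RPMM under AL. The groups did not overlap, but 2 of the 4 aDR libraries were at most 54.5 RPMM. Without mouse 62 its log2 difference was 5.31 (SE 0.80, adjusted p = 0.00035 by edgeR), and without mice 62 and 65 it was 1.04 and no longer called (adjusted p = 0.155). miR-128-1-5p was 3.52, 17.8, 82.5 and 4.58 RPMM under aDR and 1.65, 0.575, 1.26 and 1.84 RPMM under AL, and its difference went from 4.19 (SE 0.682) to 1.39 (adjusted p = 0.12) when mouse 65 was left out too.

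miR-668-3p was 699, 505, 2683 and 1043 RPMM under aDR and 421, 254, 385 and 408 RPMM under AL, again with no overlap. Its log2 difference was 1.74 without mouse 62 (SE 0.339, adjusted p = 0.0043 by edgeR) and 1.05 without mice 62 and 65 (adjusted p = 0.0921). With all 8 libraries it was 3.12 and not called. miR-7662-3p was near the limit of detection, at 0.895, 0, 9.95 and 0.778 RPMM under aDR and 0.103, 0.345, 0.281 and 0.325 RPMM under AL. Its difference went from 3.55 to 1.47 and its adjusted p from 0.0083 to 0.525. For these 4 miRNAs, the call rested on the library of 1 animal.

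These 4 and miR-218-5p, grouped after their values were seen, were compared by their highest and lowest libraries. Mouse 65 was their highest library in the caudate putamen apart from mouse 62, a place that for the 4 follows from how they were chosen. In the SVZ, mouse 65 was highest for 5 of the 5. By contrast, mouse 65 was lowest in the choroid plexus for 5 of the 5, and AL mouse 69 was highest for 4. In the SVZ, aDR mouse 61 was lowest for 5 of the 5. Apart from the caudate putamen library of mouse 62, the highest library of miR-132-3p exceeded the lowest 204-fold in the caudate putamen, 544-fold in the SVZ and 21.2-fold in the choroid plexus. Under AL, miR-132-3p lay between 12.5 and 20.6 RPMM in the caudate putamen. In the SVZ, the annotated sequence took 3.28% to 45.2% of miR-132-3p reads under aDR and 1.56% to 3.63% under AL. With mouse 62, these shares were 2.17% to 36.1% against 3.85% to 10.1% in the caudate putamen. In the choroid plexus they were 2.37% to 7.09% against 2.81% to 6.95%. None of these differences passed (exact permutation test, adjusted p = 0.305, 0.784 and 0.932). What the spread goes with was not tested. In the aging cohort, with both sexes pooled, miR-132-3p of the caudate putamen was 838 ± 1922 RPMM at 3 months (SD, n = 9), 1295 ± 2493 RPMM at 18 months (SD, n = 10) and 3366 ± 4463 RPMM at 21 months (SD, n = 11), with SDs above the means. In the choroid plexus, where the diets overlapped (151, 10.1 and 91.2 RPMM in aDR mice 61, 65 and 67 against 21.9, 15.8, 38.6 and 214 RPMM under AL, log2 difference 0.02, SE 0.832), its level fell with age in that cohort by 0.15 per month on the log2 scale (edgeR, adjusted p = 0.0063). With the females of that cohort alone the slope was -0.11 and not called (edgeR, adjusted p = 0.355). The partner arm miR-132-5p was 63.3, 78.1 and 99.9 RPMM in aDR mice 61, 65 and 67 and 63.5, 87.9, 80.8 and 61.4 RPMM under AL, so that mouse 65 did not stand out there (log2 difference -0.07, adjusted p = 0.952 by edgeR).

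**Figure D4:**
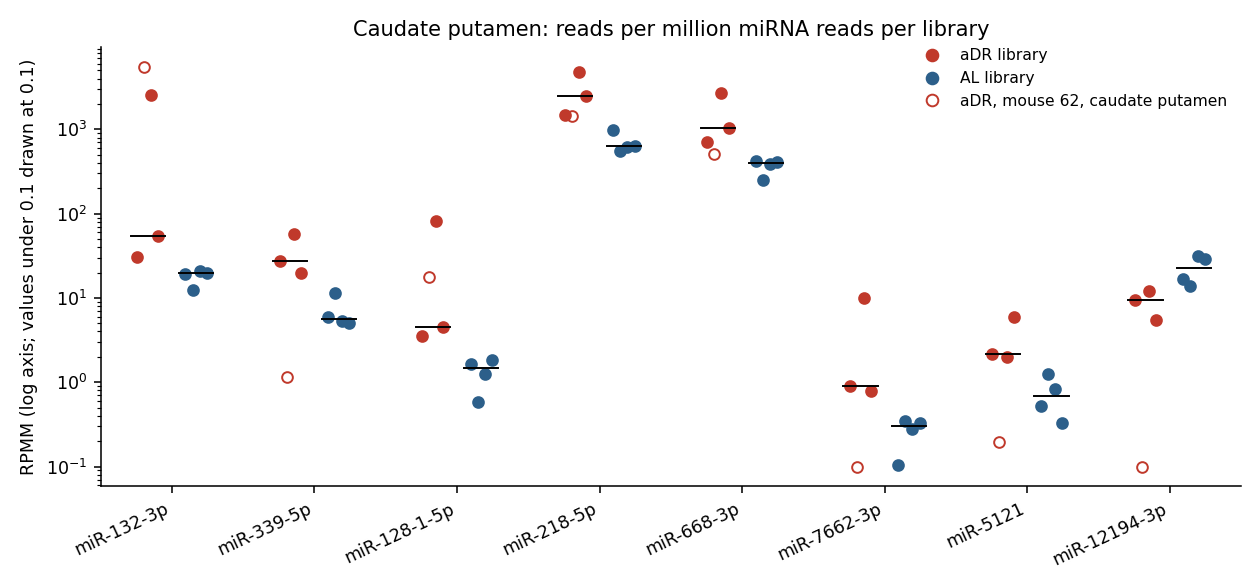
Levels in RPMM (log axis) of the 8 miRNAs called in the caudate putamen without mouse 62; points are libraries, the open circle is the library of mouse 62, horizontal lines are group medians without it, and values under 0.1 are drawn at 0.1. Apart from mouse 62, whose miR-339-5p is at 1.16 RPMM, the aDR libraries of miR-339-5p and miR-218-5p lie together above the AL libraries, whereas those of miR-132-3p and miR-128-1-5p are spread out with mouse 65 far above mice 61 and 67.

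The 2 other miRNAs called without mouse 62 were of low abundance. miR-5121 was 2.18, 0.194, 2.01 and 5.95 RPMM under aDR and 0.517, 1.27, 0.842 and 0.325 RPMM under AL (2.06, SE 0.491, adjusted p = 0.0381 by edgeR), and the call was lost without mouse 63, 67 or 69 (adjusted p = 0.0749, 0.289 and 0.0696). miR-12194-3p was the one called lower. Its level was 9.51, 0, 12.1 and 5.49 RPMM under aDR and 16.7, 13.7, 31.1 and 28.8 RPMM under AL, with every aDR library below every AL library (-1.59, SE 0.36, adjusted p = 0.0228). Its call was lost without mouse 67 or 68 (adjusted p = 0.105 and 0.0995). In the SVZ it was 7.03, 5.11, 10.1 and 3.03 RPMM under aDR and 14.6, 8.45, 17.1 and 9.60 RPMM under AL (-1.55, SE 0.503, adjusted p = 0.343), and in the choroid plexus 3.41, 4.30 and 6.21 RPMM against 7.08, 4.72, 5.64 and 6.13 RPMM, both with overlap.

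Among the lists in the caudate putamen without mouse 62, 5 of 12 neuronal miRNAs were positive and 1 was called, miR-218-5p (list median -0.09). Of 5 activity-regulated miRNAs, 4 were positive and 1 was called, miR-132-3p (median 0.51), a call that was lost without mouse 65. The median over all 1281 miRNAs was 0.02. No member of the other lists was called. The choroid plexus list had 6 of 14 positive (median -0.06), the leukocyte list 5 of 6 (median 0.39), the microglia and inflammation list 4 of 5 (median 0.23), the erythroid list 4 of 6 (median 0.19) and the nutrient and insulin list 4 of 12 (median -0.25). The oligodendrocyte list had 3 of 4 positive (median 0.23), the fibroblast list 2 of 4 (median 0.04), the endothelial and mural list 2 of 5 (median -0.20), the multiciliated list 4 of 6 (median 0.26) and the epithelial list 2 of 9 (median -0.59). With mouse 62 included, 7 of 382 miRNAs with a mean of at least 10 RPMM (1.83%) were higher in every aDR library than in every AL library, and 8 (2.09%) were lower in every one. Without it, of 398 such miRNAs, 38 (9.55%) were higher in every one of the 3 aDR libraries than in every AL library, and 9 (2.26%) were lower in every one. These counts rest on RPMM, which scales to the total miRNA count. Under that scaling the median log2 difference of all miRNAs without mouse 62 was 0.22, against 0.02 with TMM.

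In the choroid plexus, no miRNA was called of 1291 tested (0%, edgeR; DESeq2, limma voom and limma trend also called 0), and 29 (2.25%) were below an unadjusted p of 0.05. The smallest adjusted p was 0.993, and leaving out any 1 library gave no call. Of the 5 miRNAs of at least 10 RPMM with the smallest p, miR-143-3p of smooth muscle and mural cells was 1272, 1545 and 1210 RPMM in mice 61, 65 and 67 and 1527, 2400, 2146 and 2278 RPMM under AL (-0.72, SE 0.28, unadjusted p = 0.0209 by edgeR). Mouse 65 was just above the lowest AL library. miR-125a-5p was 232, 200 and 250 RPMM under aDR and 155, 195, 130 and 98.6 RPMM under AL, with no overlap (log2 difference 0.61). miR-410-3p of the imprinted Mirg cluster was 118, 197 and 166 RPMM under aDR and 88.0, 123, 112 and 68.7 RPMM under AL (0.66). miR-496a-3p (0.64) and miR-335-5p (0.86) completed the 5. Of 405 miRNAs of at least 10 RPMM, 5 (1.23%) were higher in every aDR library and 1 (0.247%) lower, the latter being miR-378c.

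No list member was called in the choroid plexus, where the median of all miRNAs was 0.06. The 6 measured multiciliated miRNAs were all negative (median -0.38), as were the 4 fibroblast miRNAs (median -0.41), without any below an unadjusted p of 0.05. The leukocyte list had 5 of 6 positive (median 0.40), the erythroid list 5 of 6 (median 0.20), the microglia and inflammation list 4 of 5 (median 0.27), the neuronal list 8 of 12 (median 0.10) and the activity-regulated list 3 of 5 (median 0.02). The nutrient and insulin list had 4 of 12 positive (median -0.11), the oligodendrocyte list 1 of 4 (median -0.14), the epithelial list 2 of 9 (median -0.50) and the endothelial and mural list 2 of 5 (median -0.04).

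Over the 3 regions, with region as a term and the mouse as a block, no miRNA was called of 1321 tested (0%, limma voom), 115 (8.71%) were below an unadjusted p of 0.05, and the smallest adjusted p was 0.384. edgeR with region as a term and without the block called 0 as well. The correlation of libraries of the same mouse was estimated at 0.043. The smallest p values among miRNAs of at least 10 RPMM belonged to miR-12194-3p (-1.33, SE 0.324), miR-764-5p (1.29, SE 0.383), miR-339-5p (1.06, SE 0.343), miR-376a-3p (-1.06, SE 0.357) and miR-5113 (-0.72, SE 0.246). miR-339-5p was thus positive in the fit over all 23 libraries, including that of mouse 62 at 1.16 RPMM.

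Without the caudate putamen library of mouse 62, miR-701-3p was the 1 miRNA called (0.0757%), lower under aDR by 2.16 on the log2 scale (SE 0.411, adjusted p = 0.0178 by limma voom), and 196 (14.8%) were below an unadjusted p of 0.05. miR-701-3p was at the limit of detection. It was 0 in the caudate putamen and choroid plexus libraries of every aDR mouse, and it did not exceed 0.499 RPMM in any library. The next in order were miR-12194-3p (-1.30, adjusted p = 0.133) and miR-143-3p (-0.62, SE 0.155, adjusted p = 0.185), followed by miR-129-5p (-0.77), miR-148b-3p (1.26) and miR-26a-5p (-0.62). miR-129-5p, a neuronal miRNA, was 4835, 2084, 4846 and 4288 RPMM under aDR and 8802, 5751, 8272 and 7222 RPMM under AL in the caudate putamen, and 2947, 2914, 4065 and 3801 RPMM against 5482, 4325, 4420 and 5243 RPMM in the SVZ. Its aDR libraries were below all AL libraries in these 2 regions. Its levels overlapped in the choroid plexus, at 2357, 1855 and 1180 RPMM in mice 61, 65 and 67 against 2249, 1884, 2129 and 1522 RPMM under AL, and mouse 61 was above every AL library. Of the 9 let-7 miRNAs, 6 were negative over the 3 regions with all 23 libraries (median -0.04), and 0 were below an unadjusted p of 0.05. Without the caudate putamen library of mouse 62, all 9 were negative and 8 were below it (median -0.50). None was called in either limma voom fit.

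**Figure D5:**
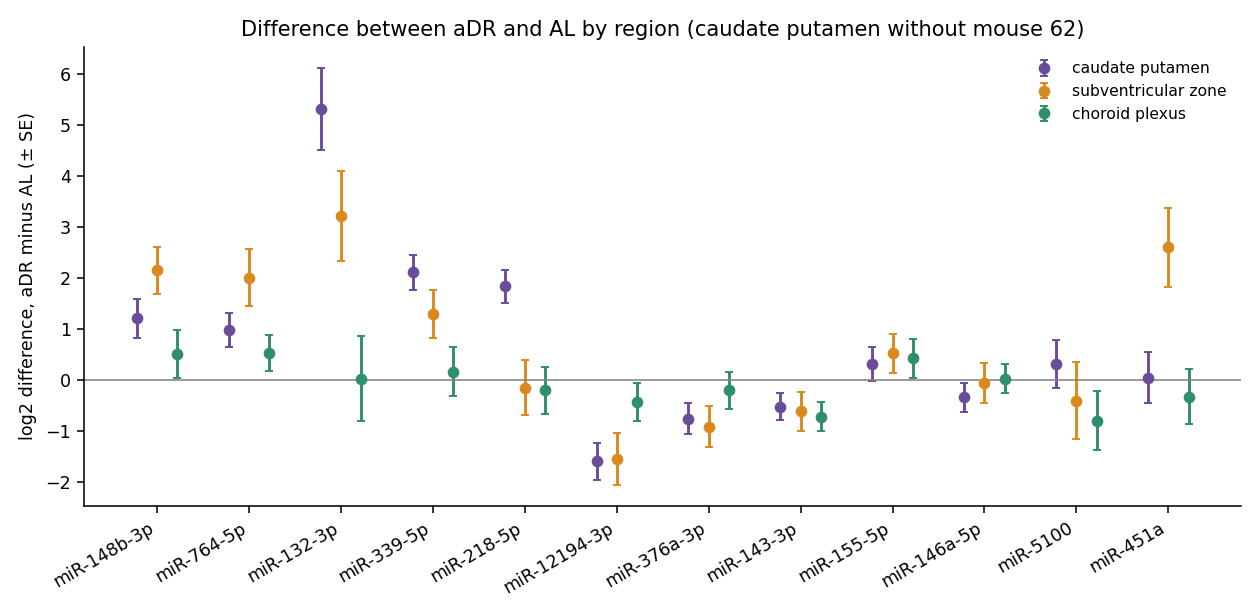
Log2 differences, aDR minus AL, with their SE for 12 miRNAs in each of the 3 regions (caudate putamen without mouse 62; 3 aDR and 4 AL libraries there and in the choroid plexus, 4 and 4 in the SVZ). miR-148b-3p is at 2.15 in the SVZ and 0.50 in the choroid plexus, and the values of miR-132-3p differ most between the regions.

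Whether the response to aDR differed among the 3 regions was tested by the interaction of diet and region. No miRNA passed of 1321 (0%, limma voom), and 35 (2.65%) were below an unadjusted p of 0.05. Without the caudate putamen library of mouse 62, again none passed (smallest adjusted p = 0.318), and 70 (5.3%) were below an unadjusted p of 0.05. The smallest p values were those of miR-194-2-3p, miR-6962-5p and miR-1949 with all libraries, and those of miR-6962-5p, miR-194-2-3p and miR-10b-5p without that one. All 4 of these miRNAs were at or under 1.79 RPMM in every library. The call of miR-148b-3p in the SVZ alone is therefore not shown to be particular to that region.

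The mean effect of aDR in these 3 regions was also set against that in the other 11 regions of the same cohort (90 libraries). No miRNA passed of 1334 (0%, limma voom), and 33 (2.47%) were below an unadjusted p of 0.05. The smallest p values belonged to miR-7044-5p (1.05, SE 0.366), miR-376a-3p (-0.85, SE 0.30) and miR-3072-3p (-0.78, SE 0.281), all with an adjusted p of 0.995. Without the caudate putamen library of mouse 62, 0 passed and 40 (3%) were below an unadjusted p of 0.05. miR-376a-3p, an imprinted neuronal miRNA, was 743, 2.52, 878 and 287 RPMM under aDR and 1002, 840, 901 and 885 RPMM under AL in the caudate putamen, so that mice 62 and 67 were low and mouse 65 was within the AL range.

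For the intervention the study asked about its age-related miRNAs, miR-5100 among them with miR-146a-5p and miR-155-5p, and it singled out miR-451a for aDR from these same libraries, so that a difference of miR-451a here is not independent of that choice. Their sequences are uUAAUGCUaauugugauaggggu for miR-155-5p (chr16:84714143-84714165, +, in an exon of Mir155hg), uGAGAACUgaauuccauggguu for miR-146a-5p (chr11:43374435-43374456, -), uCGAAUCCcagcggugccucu for miR-5100 (chr11:60728698-60728718, +, in an intron of Mief2) and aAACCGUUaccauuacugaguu for miR-451a (chr11:78073186-78073207, +). miR-155-5p and miR-146a-5p are induced by NF-κB in microglia and other immune cells, and miR-451a is abundant in erythroid cells. Each was tested over mice as the mean over the regions of the log2 level minus the region mean, by an exact permutation test whose smallest p is 0.0286 with 4 against 4 mice. Mouse 62 had no choroid plexus library, so that without its caudate putamen library its value is that of its SVZ library alone.

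miR-155-5p was 37.8, 0.388, 39.4 and 63.5 RPMM under aDR and 15.9, 58.1, 24.4 and 37.3 RPMM under AL in the caudate putamen. In the SVZ it was 116, 81.7, 44.5 and 106 RPMM under aDR and 12.2, 50.9, 35.8 and 71.7 RPMM under AL, and in the choroid plexus 83.1, 104.5 and 29.4 RPMM in mice 61, 65 and 67 against 39.4, 53.4, 46.4 and 61.0 RPMM. In the SVZ, 3 of the 4 aDR libraries were above every AL library, and in the other regions the groups overlapped on both sides. Per mouse the log2 difference was 0.10 (exact permutation test, two-sided, p = 0.857), and 0.40 (p = 0.257, exact permutation test) without the caudate putamen library of mouse 62. In the aging cohort, where age slopes were called for 10 of 1041 miRNAs in the caudate putamen (0.961%), 85 in the SVZ (8.17%) and 275 in the choroid plexus (26.4%), and 175 (16.8%), 219 (21%) and 415 (39.9%) were below an unadjusted p of 0.05, miR-155-5p rose with age in all 3, by 0.08, 0.05 and 0.08 per month on the log2 scale (edgeR, adjusted p = 0.0007, 9.74e-07 and 9.9e-09). That cohort held both sexes between 3 and 21 months but only males at the oldest ages, up to 28 months, and sex was a term of the fit. With its females alone, 25 libraries per region up to 21 months, 1, 21 and 6 slopes were called, and miR-155-5p had slopes of 0.07, 0.04 and 0.09 per month, called in the choroid plexus (edgeR adjusted p = 0.286, 0.105 and 0.0159).

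miR-146a-5p was 424, 19.2, 489 and 614 RPMM under aDR and 358, 638, 496 and 742 RPMM under AL in the caudate putamen. It was 535, 310, 207 and 512 RPMM against 81.0, 260, 301 and 514 RPMM in the SVZ, and 427, 555 and 458 RPMM against 341, 468, 490 and 482 RPMM in the choroid plexus. The groups overlapped in each region, and the difference per mouse was -0.18 (exact permutation test, two-sided, p = 0.400) and -0.15 (p = 0.657, exact permutation test) without the caudate putamen library of mouse 62. With age it rose in all 3 regions, by 0.03, 0.04 and 0.06 per month (edgeR, adjusted p = 0.0186, 1.62e-07 and 1.36e-07). With females alone its slopes were 0.05, 0.04 and 0.06 per month, of which that in the SVZ was called (edgeR adjusted p = 0.262, 0.0422 and 0.055).

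miR-5100 stayed at or under 3.23 RPMM in every library. It was 1.90, 0, 3.23 and 1.46 RPMM under aDR and 0.930, 1.96, 0.421 and 2.60 RPMM under AL in the caudate putamen, and 0.769, 0.197, 1.81 and 0.263 RPMM against 0.771, 0.428, 0.893 and 0.832 RPMM in the SVZ. Its difference per mouse was -0.73 (exact permutation test, two-sided, p = 0.343) and -0.51 (p = 0.457, exact permutation test) without the caudate putamen library of mouse 62. With age it rose in the SVZ and the choroid plexus by 0.13 and 0.14 per month (edgeR, adjusted p = 1.66e-06 and 3.79e-05), and with females alone the slopes were 0.14 and 0.13, called in the SVZ (edgeR adjusted p = 0.0367 and 0.0943).

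miR-451a was 1.21, 12.6, 0.165 and 7.37 RPMM under aDR and 0, 1.39, 0.694 and 0.384 RPMM under AL in the SVZ (2.60, SE 0.777, unadjusted p = 0.0018, adjusted p = 0.298 by edgeR). Mice 62 and 67 were above all AL libraries, while mouse 65 was near the bottom. It was called higher when mouse 61, 63, 65 or 66 was left out (log2 difference 2.92, 2.24, 2.98 and 3.33), and not when mouse 62, 67, 68 or 69 was (1.84, 2.36, 2.70 and 2.36). In the caudate putamen it was 1.85, 0, 2.88 and 0.961 RPMM under aDR and 0.413, 1.27, 2.67 and 1.84 RPMM under AL, and in the choroid plexus 1.40, 1.79 and 1.59 RPMM against 0.462, 1.60, 3.81 and 1.82 RPMM, with overlap in both. The difference per mouse was 0.38 (exact permutation test, two-sided, p = 0.8), and 1.15 (p = 0.4, exact permutation test) without the caudate putamen library of mouse 62. In the latter, mouse 62 was at 2.99 from its SVZ library alone, and mice 61, 65 and 67 were at -0.007, -0.31 and 0.64. Adjusted over the 4 miRNAs, the permutation p values were between 0.8 and 0.857 with all libraries. Without the caudate putamen library of mouse 62 they were between 0.610 and 0.657. No age slope of miR-451a was called.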

How the data were processed

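Small RNA libraries were made from total RNA with the MGIEasy kit and sequenced on a BGISEQ instrument. The authors aligned reads to mm10 (GRCm38) and miRBase with Bowtie inside miRMaster and deposited raw estimated counts per mature miRNA and per isomiR, in which a read that matches several miRNAs is split; libraries of low depth were removed by them beforehand. Of the deposited estimated counts, 0.814% were not whole, and all were rounded before testing. The reads carry no molecular identifiers. No pair of libraries held identical values.

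A miRNA was kept where, in any 1 region, no fewer than 10% of libraries held 5 or more reads, which left 1334 of 1966 (1041 in the aging cohort). Each region was fitted with edgeR 4.0.16 (quasi-likelihood, TMM) in R 4.3.3. The 3 regions together, the interaction and the contrast with the other 11 regions were fitted with voom and duplicateCorrelation of limma 3.58.1, the mouse being the block. p values were Benjamini-Hochberg adjusted over all miRNAs tested. Mouse numbers in the labels name the animal and so pair its libraries; deviations from the group means correlated at a mean of 0.17 between regions of 1 mouse and -0.06 between mice of 1 diet, over 403 miRNAs, and 6 of 7 mice were above 0.1. Ages were fitted as slopes in 174 libraries of the same regions of the aging cohort (male and female mice of 3 to 28 months, males alone after 21 months), with sex as a term. Single miRNAs per mouse and shares of canonical isomiR reads (at least 50 reads in every library of a region) were tested by exact permutation.

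The named miRNAs were, per fit, up to 10 called in each direction, or the 5 of smallest p with a mean of at least 10 RPMM; 3 for the interaction and the contrast with other regions; the 4 the study singles out; the 5 most abundant per region; and list members. Added after their values were seen were the seed mates miR-148a-3p and miR-152-3p, miR-132-5p, miRNAs named for groups that do not overlap, and list members other than the most abundant. The members and lists, among them lists for erythroid, leukocyte, microglial, choroid plexus, multiciliated, epithelial, neuronal, oligodendrocyte, endothelial and fibroblast miRNAs, were chosen with earlier results of these data known. Alternatives were other scalings (RLE factors, total miRNA count), filters, DESeq2 1.42.0, limma voom, a fit over all 14 regions, library complexity as a term, and leaving out each library. All fits without the caudate putamen library of mouse 62 beyond leaving it out of its own region were chosen after seeing the data. The scripts were tested on simulated data. Sequences are from RefSeq on GRCm38.p6, and 1121 of the 1334 tested miRNAs were matched. Beyond the diet and aging cohorts, tables of other cohorts were not used here, nor were those of other RNA classes.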

Additional observations from a re-analysis of the deposited data

Results flagged for a closer look

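Of 66 groups of 4 values tested for 1 value far from the others, 7 were marked, where chance marks about 1 in 20. The caudate putamen library of aDR mouse 62 was far from the other 3 of its group in detected miRNAs (459 against 1150 to 1230) and in the number of miRNAs expected when a library is thinned to 1 mega-read, which is 1e+06 reads (313 against 765 to 791). In the caudate putamen, miR-7662-3p was 9.95 RPMM in aDR mouse 65 and at most 0.895 RPMM in the other aDR libraries. AL mouse 66 was the odd one for miR-132-3p, at 12.5 RPMM against 19.4 to 20.6 RPMM, and for miR-339-5p, at 11.5 RPMM against 5.09 to 6.00 RPMM. In the SVZ, miR-132-3p was 250 RPMM in AL mouse 63 and 36.3 to 55.8 RPMM in the other AL libraries. In the choroid plexus, miR-146a-5p was 341 RPMM in AL mouse 63 and 468 to 490 RPMM in the other AL libraries.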

How the results depend on the processing

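With 3 or 4 libraries per diet, calls changed with single libraries. In the caudate putamen, 0 calls became 1 with scaling to the total miRNA count, 13 with no filter, 14 with DESeq2, 53 in a fit over all 14 regions and 6 with library complexity as a term, and 0 to 36 when 1 library was left out (36, 8, 21 and 27 without aDR mice 61, 62, 65 and 67, and 0 without each AL library). Without mouse 62, the count was 8, or 12 with the total count, 4 with DESeq2 and 1 with complexity as a term, and 9 to 23 when 1 more library was left out. In the SVZ, 1 call became 0 with the total count, the 10 RPMM filter, DESeq2, limma trend and all 14 regions, 12 with no filter, 2 with complexity as a term, and 0 to 48 when 1 library was left out (48 without mouse 65, 11 without mouse 63, 8 without mouse 69, 4 without mouse 61, 3 without mouse 66, 2 without mouse 62, 0 without mouse 67 or 68). The adjusted p of miR-148b-3p in the SVZ ranged from 0.000222 to 0.784, and its direction stayed positive throughout. The choroid plexus, the interaction and the contrast with the other regions gave 0 calls under every alternative. Over the 3 regions, the fit with no replicate block, which ignores the pairing of libraries by mouse, also gave 0, and the block changed no other call; leaving out mouse 62, or its caudate putamen library alone, gave 1 (range 0 to 1 over mice). Called age slopes were 1 with females alone and 4 with the 10 RPMM filter in the caudate putamen, 21 with females alone in the SVZ, and 454 with the total count, 6 with females alone and 180 with the 10 RPMM filter in the choroid plexus. Per mouse, the sign of 3 values turned: miR-155-5p was -0.0296 with the total count and -0.114 to 0.430 when 1 mouse was left out, miR-146a-5p -0.356 to 0.0339 and miR-451a -0.161 to 0.687. The causes were not tested. No library of these regions had under 2 mega-reads of miRNA, so that alternative applied only to the contrast with the other regions.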
